A study of Mus musculus with 48 samples.

Results

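The expression of 52 cell cycle and DNA replication genes was followed through adipogenic differentiation of 2 primary mouse cell types, preadipocytes (PRE) of inguinal white adipose tissue (iWAT) and mouse embryonic fibroblasts (MEF). The 52 genes were taken by symbol from the 55450 genes of the deposited count tables, and each symbol was present in both tables. They fall into 8 roles. These are 5 G1 cyclins and kinases (Ccnd1, Ccnd2, Ccnd3, Cdk4, Cdk6), 5 G1/S regulators (Ccne1, Ccne2, Cdk2, E2f1, E2f8), 9 genes of origin licensing and the replication fork (Cdc6, Cdt1, Mcm2 to Mcm7, Pcna), 4 of nucleotide supply (Rrm1, Rrm2, Tyms, Tk1), 10 G2/M regulators (Ccna2, Ccnb1, Ccnb2, Cdk1, Cdc25c, Plk1, Aurka, Aurkb, Foxm1, Mybl2), 11 of the chromosome and spindle machinery (Mki67, Top2a, Kif11, Kif20a, Kif23, Cenpa, Cenpe, Cenpf, Bub1, Bub1b, Birc5), 3 of mitotic exit (Cdc20, Ube2c, Espl1) and 5 inhibitors of cyclin-dependent kinases (CDKs; Cdkn1a, Cdkn1b, Cdkn2a, Cdkn2b, Cdkn2c). WT cells came from C57BL/6 mice, and DKO cells from C57BL/6 mice with germline inactivation of Hmgn1 and Hmgn2 (Hmgn1-/- and Hmgn2-/-), whose products are nucleosome-binding proteins. PRE were sampled at days 0, 3, 6 and 9 and MEF at days 0, 4, 8 and 12, with 3 WT and 3 DKO libraries in each of these 8 settings and 48 libraries in all. Cells of both genotypes were grown to confluence, PRE on collagen-coated plates. They were then differentiated with insulin, dexamethasone, IBMX, T3 and rosiglitazone, and later kept in insulin and T3. The full cocktail was given for 4 days to PRE and for 8 days to MEF, so by this schedule PRE at day 3 and MEF at days 4 and 8 had the cocktail, and PRE at days 6 and 9 and MEF at day 12 had changed to insulin and T3. From PRE day 3 to day 6 and from MEF day 8 to day 12, the passing of days and the change of medium cannot be told apart. The methods of the study describe iWAT of adult mice and embryos of mid-gestation, and its figure legends call PRE and MEF transcript data biological replicates. The labels do not tie libraries to single animals or cultures, so the p-values measure the spread between these libraries, which may be technical.

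In the cell cycle, D-type cyclins with CDK4 or CDK6 and then cyclin E with CDK2 release the E2F factors, which turn on the genes of origin licensing, nucleotide supply and DNA synthesis. Cyclin A, cyclin B and CDK1, the Aurora and Polo kinases, the kinetochore and the anaphase-promoting complex then carry the cell through mitosis. Many genes of this late wave are controlled through the CHR element near their start by the DREAM and MuvB complexes and FOXM1. CCAAT boxes are a further element of such promoters. Cultured preadipocytes that reach confluence and are given an adipogenic cocktail are known to pass through a short round of division, called mitotic clonal expansion, before they leave the cycle and mature into adipocytes, with CDK inhibitors of the INK4 (Cdkn2) and CIP/KIP (Cdkn1) families restraining the kinases.

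Promoters of 43 of the 52 genes were found in the RefSeq table of GRCm38.p6, the patch release of the build behind mm10, and were searched on both strands for 3 motifs over 300 bases, from 250 before the start to 50 after it. The CHR element was searched as TTTGAA. The CCAAT box was searched by the letters of its name. The E2F site was searched as TTCCCGC, then as TTCGCGC, then as TTGCCGC and then as TTGGCGC. A match is only a match of letters. CHR letters were present in 17 of the 43 genes (39.5%) against 20.2% of all 27025 genes in the table, CCAAT in 31 (72.1%) against 41.1%, E2F letters in 15 (34.9%) against 10.9%, and CHR and CCAAT together in 16 (37.2%) against 8.0%. The roles carried different motifs. CHR letters were found in 7 of 10 spindle genes, 4 of 6 G2/M regulators, all 3 genes of mitotic exit and 1 of 8 licensing and fork genes, whereas E2F letters were found in 6 of 8 licensing and fork genes and in 1 of 10 spindle genes. None of the 3 G1 cyclin or kinase genes with a promoter carried CHR or E2F letters. Kif20a, Foxm1, Ccnd1, Ccna2, Mcm4, Ccne2, Aurkb, Cdc25c and Ccnd2 had no entry.

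The 250 bases before the start are shown, 5′ to 3′ and ending at the start, for 7 genes that carry the results, with letters of any of the 3 motifs in capitals. Mcm5 (replicative helicase) and E2f8 (an E2F repressor) show E2F letters. Top2a (DNA topoisomerase), Kif11 (spindle kinesin) and Cdc20 (activator of the anaphase-promoting complex) show CHR letters close to the start, Cdk1 shows both motifs, and Cdkn2c is the CDK inhibitor that was called between genotypes.
Mcm5 (chr8:75109259-75109508, plus strand): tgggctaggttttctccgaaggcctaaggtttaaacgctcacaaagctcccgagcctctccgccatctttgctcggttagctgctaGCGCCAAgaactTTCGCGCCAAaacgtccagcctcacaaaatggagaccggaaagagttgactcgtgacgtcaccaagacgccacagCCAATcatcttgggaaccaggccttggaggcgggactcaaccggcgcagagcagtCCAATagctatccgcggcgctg
E2f8 (chr7:48881597-48881846, minus strand): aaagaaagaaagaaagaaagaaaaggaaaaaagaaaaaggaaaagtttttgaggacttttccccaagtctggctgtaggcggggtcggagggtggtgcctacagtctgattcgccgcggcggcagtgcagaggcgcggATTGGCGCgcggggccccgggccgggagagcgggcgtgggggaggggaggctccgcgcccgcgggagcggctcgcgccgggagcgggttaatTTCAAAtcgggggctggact
Cdk1 (chr10:69352913-69353162, minus strand): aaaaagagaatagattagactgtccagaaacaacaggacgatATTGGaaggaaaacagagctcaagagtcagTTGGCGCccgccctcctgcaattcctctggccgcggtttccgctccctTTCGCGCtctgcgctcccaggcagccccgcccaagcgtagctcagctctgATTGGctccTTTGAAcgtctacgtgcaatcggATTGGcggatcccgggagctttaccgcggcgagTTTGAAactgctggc
Top2a (chr11:99024190-99024439, minus strand): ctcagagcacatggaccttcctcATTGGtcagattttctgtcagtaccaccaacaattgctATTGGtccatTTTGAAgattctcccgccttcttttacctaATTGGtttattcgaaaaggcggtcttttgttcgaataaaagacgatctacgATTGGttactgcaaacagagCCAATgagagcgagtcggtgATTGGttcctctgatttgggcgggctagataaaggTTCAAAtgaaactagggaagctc
Kif11 (chr19:37376132-37376381, plus strand): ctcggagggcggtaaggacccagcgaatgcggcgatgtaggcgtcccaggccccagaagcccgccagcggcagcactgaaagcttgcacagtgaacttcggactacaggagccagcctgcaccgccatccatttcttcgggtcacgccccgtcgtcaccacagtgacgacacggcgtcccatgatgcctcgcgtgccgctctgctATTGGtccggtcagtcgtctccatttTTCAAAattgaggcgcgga
Cdc20 (chr4:118437344-118437593, minus strand): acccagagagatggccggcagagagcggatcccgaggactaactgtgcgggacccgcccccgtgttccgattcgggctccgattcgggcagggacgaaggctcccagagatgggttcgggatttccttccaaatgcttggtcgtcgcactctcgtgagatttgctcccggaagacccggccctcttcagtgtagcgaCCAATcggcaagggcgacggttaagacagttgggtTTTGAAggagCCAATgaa
Cdkn2c (chr4:109666757-109667006, minus strand): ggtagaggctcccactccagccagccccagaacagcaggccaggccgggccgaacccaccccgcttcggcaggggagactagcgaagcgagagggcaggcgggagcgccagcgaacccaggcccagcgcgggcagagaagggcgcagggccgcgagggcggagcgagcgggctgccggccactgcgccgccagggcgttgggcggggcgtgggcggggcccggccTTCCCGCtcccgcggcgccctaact
Counted from the start, the CHR letters nearest to it began at -23 in Top2a, -19 in Kif11, -18 in Cdc20, -15 in Cdk1 and -20 in E2f8. The E2F letters of Mcm5 began at -164, -152 and -149, and the last 2 of these matches share letters. Those of Cdkn2c began at -25. In E2f8 the E2F match shares letters with a CCAAT match, as in Ccnb1 and Mcm7.

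**Figure D1:**
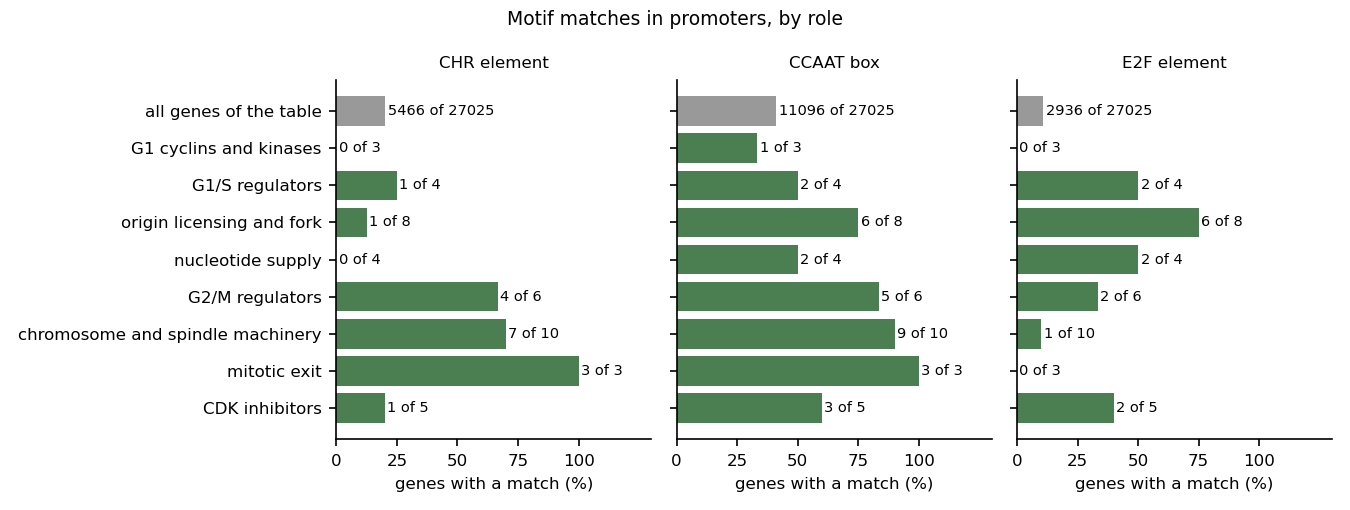
Share of genes (percent, from 0) whose 300-base promoter window holds letters of the CHR element, the CCAAT box or the E2F site, for each role and for all 27025 genes of the table. Bars for CHR and CCAAT are tallest in the spindle (70.0% and 90.0%), G2/M (66.7% and 83.3%) and mitotic exit groups, and the E2F bar is tallest in licensing and fork genes (75%).

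Summed counts per library were 19809397 to 36006696 in PRE and 18962483 to 33083213 in MEF. Levels are CPM, the counts of a gene relative to the library's total, scaled by edgeR's trimmed mean of M-values (TMM). They are listed for replicates 1, 2 and 3 in that order. Hmgn2 had at most 10 counts in any DKO library, and Hmgn1 kept reads in DKO cells (group means of 77.8 to 102 CPM). In MEF at day 0, DKO replicate 1 stood close to the WT libraries in most cycle genes and replicates 2 and 3 well below them, so counts of called genes that use this group are given with and without replicate 1. Counts of Mcm7, Pcna and Ccnb1 were not whole in 47, 48 and 42 of the 48 libraries, those of Ccnd2 and Mybl2 in 26 and those of Cdkn1a in 15, because the counter divided reads that match other sequences too, and their values are less certain. Muscle and erythroid markers were low, with no gene of either list (4 and 3 genes) over a mean of 1 CPM, whereas all 6 adipocyte, 7 fibroblast and 7 macrophage and leukocyte markers were over 1 CPM in both cell types.

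Compared per length of transcript, the most abundant of the 52 genes in WT PRE at day 0 were the CDK inhibitor Cdkn1a (p21) at 111.8 CPM per kb, cyclin D2 (Ccnd2) at 99.0, cyclin D1 (Ccnd1) at 61.7, Cdk4 at 54.6 and Cdkn2a (p16 and p19ARF, counted together) at 53.9. At day 3 the order was led by Rrm2, the small subunit of ribonucleotide reductase, at 67.4 CPM per kb, with Cdkn1a at 58.4 and Cdk4 at 58.3. At day 9 Cdkn1a (92.9) was again first, before Ccnd2 (41.9), Cdk4 (25.9) and Cdkn2c (p18, 24.5), and the phosphatase gene Cdc25c was last at 0.0717. In WT MEF, Ccnd1 (85.8), Ccnd2 (72.9), Cdkn1a (70.5) and Cdk4 (59.8) led at day 0, and Cdkn1a (103) led at day 12 before Ccnd2 (61.4) and Ccnd1 (49.5).

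The first question was how the cycle genes move in WT PRE after induction. Most rose by day 3 and then fell to well below their starting level. Between days 0 and 3, 35 of the 52 genes rose and 4 fell, where 11.1% and 13.6% of all tested genes were called higher and lower. Calls here and below needed both an adjusted p under 0.05, by the quasi-likelihood test of edgeR and adjusted over all tested genes after Benjamini and Hochberg, and a fold of 1.5 or more. The median log2 fold change was 0.76 over the 52 genes. Over all tested genes it lay between -0.07 and 0.11 in each comparison of days. Without WT replicate 2 of day 0, 21 genes were higher and 4 lower. All 9 licensing and fork genes rose, as did 3 of 4 of nucleotide supply, 8 of 10 G2/M regulators, 10 of 11 spindle genes and 2 of 3 of mitotic exit. By day 6, 46 of the 52 genes had fallen from day 3 and 1 had risen (24% and 22.5% of all genes), with medians of -1.57 for licensing and fork, -2.14 for G2/M regulators, -2.26 for the spindle and -2.31 for mitotic exit. From day 6 to day 9 a further 31 genes fell and 3 rose (5.22% and 8.8% of all genes). The 31 included 9 of 10 G2/M regulators and all 11 spindle genes, but 6 of 9 licensing and fork genes. At day 9, 44 genes were below day 0 and 2 above it (27% and 25.8% of all genes), and the median was -3.36 for spindle genes against -1.34 for licensing and fork genes.

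Mki67, which codes for the Ki-67 protein of proliferating cells, followed this course. Its level in WT PRE was 100.4, 78 and 155 CPM at day 0, 154, 197 and 247 at day 3, 42.99, 28.8 and 42.4 at day 6 and 11.2, 10.8 and 10.4 at day 9. The day 3 libraries reached above day 0 with a narrow overlap, and the libraries of days 6 and 9 lay below all earlier ones. Its log2 fold change was 0.85 ± 0.25 (standard error) from day 0 to 3 (adjusted p = 0.0218), -2.36 ± 0.27 from day 3 to 6 (adjusted p = 2.38e-05) and -3.36 from day 0 to 9 (adjusted p = 2.15e-06). The rise to day 3 was not called under 5 alternative settings, where its adjusted p reached 0.0868.

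Top2a and Ccnb1 (cyclin B1, partner of CDK1) had the same shape. The Top2a libraries of WT PRE held 93.02, 72.8 and 131 CPM at day 0, 171, 211 and 251 at day 3, 52.1, 38.98 and 51.5 at day 6 and 12.4, 10 and 7.95 at day 9. No library of one day overlapped with the next. The log2 fold change of Top2a was 1.10 ± 0.23 to day 3 (adjusted p = 0.00354) and -2.13 from day 3 to day 6. For Ccnb1 the levels were 28.8, 21.2 and 36.7 CPM at day 0, 46.4, 53.05 and 66.1 at day 3, 13.4, 11.9 and 15.1 at day 6 and 4.65, 3.26 and 3.26 at day 9, again without overlap between neighbouring days. Ccnb1 rose by 0.94 ± 0.20 on the log2 scale to day 3 (adjusted p = 0.00321) and had a log2 fold change of -2.01 from day 3 to day 6.

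The S-phase genes followed the same course to day 6. Mcm5 stood at 22.8, 18.1 and 28.1 CPM in WT PRE at day 0, at 40.96, 50.6 and 50.4 at day 3, at 9.39, 9.94 and 11.4 at day 6 and at 2.98, 3.48 and 3.78 at day 9. These groups did not overlap, and the log2 fold change was 1.05 ± 0.15 to day 3 (adjusted p = 0.000219) and -2.19 from day 3 to day 6. Rrm2 had 72.4, 64.3 and 69.9 CPM at day 0, 226, 166 and 169 at day 3, 30.4, 27.7 and 31.3 at day 6 and 31.5, 26.96 and 24.4 at day 9. Rrm2 gave the highest level at day 3 per length and, unlike the mitotic genes, overlapped between days 6 and 9. Its changes were 1.44 ± 0.12 to day 3 (adjusted p = 7.8e-06) and -2.62 ± 0.13 to day 6 (adjusted p = 2.87e-08). Among G1/S regulators, cyclin E2 (Ccne2, 1.19, adjusted p = 0.0002) and E2f8 (1.20, adjusted p = 0.00252) rose to day 3, and all 5 G1/S genes fell from day 3 to day 6.

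**Figure D2:**
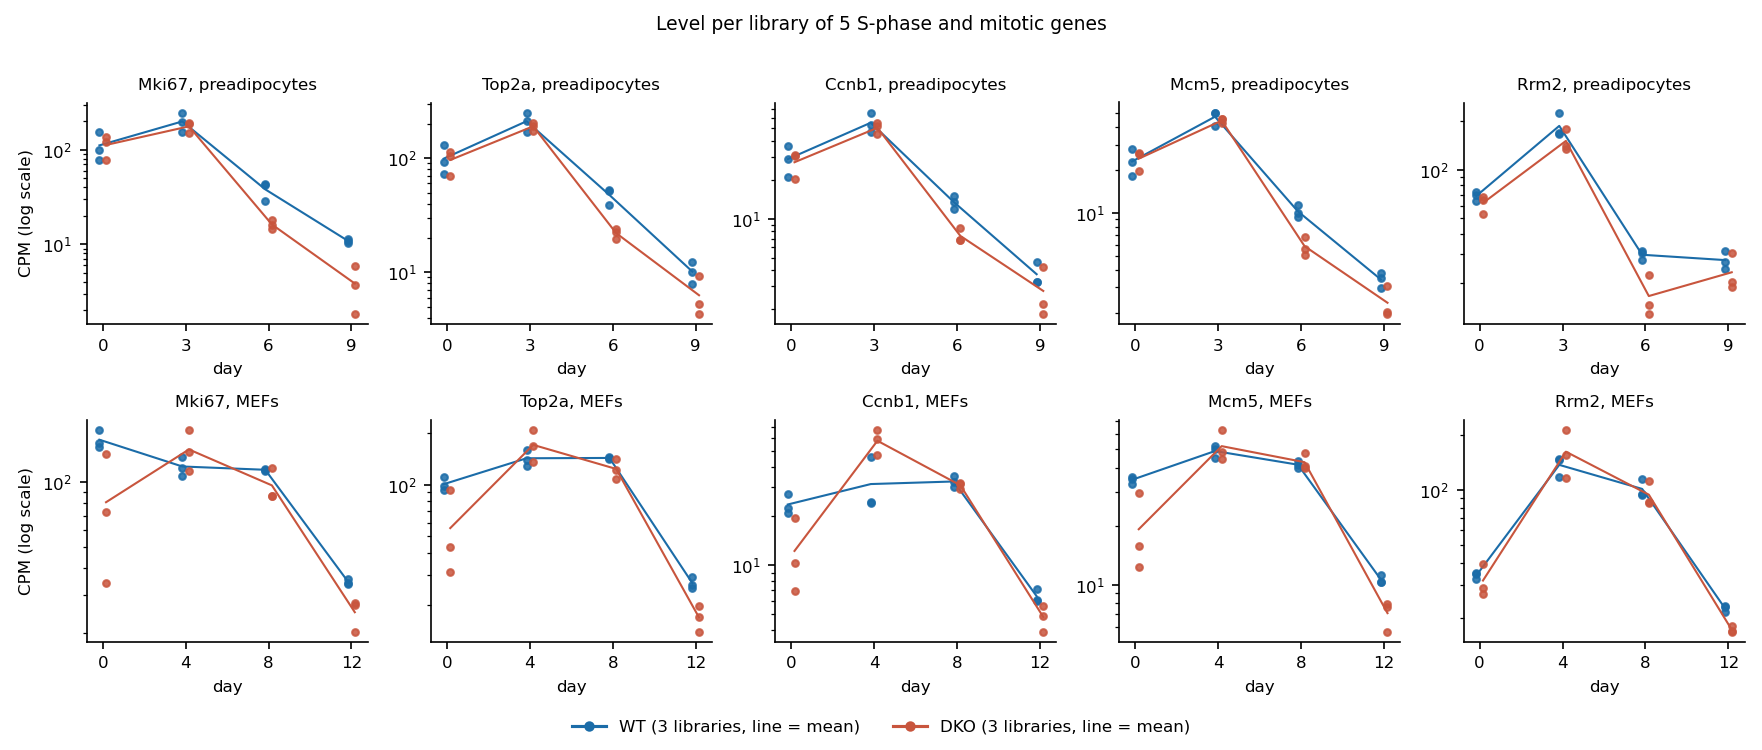
CPM (log axis) of Mki67, Top2a, Ccnb1, Mcm5 and Rrm2 by day in PRE (top row) and MEF (bottom row). Points are the 3 libraries of a group, lines join group means, WT in blue and DKO in red. In PRE the curves peak at day 3 and the DKO libraries lie below WT at day 6. In MEF they are lowest at day 12, and at day 0 the DKO points of Mki67 spread from 34.0 to 135 CPM.

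Ccnd1, Ccnd2 and Cdk6 took another course. In WT PRE 3 of 5 G1 cyclins and kinases fell from day 0 to day 3, and 2 rose from day 6 to day 9. Ccnd1 had 284, 304 and 284 CPM at day 0, 162, 154 and 91.4 at day 3, 20.4, 17.1 and 20.2 at day 6 and 54.3, 60.2 and 58.8 at day 9. It was lowest at day 6 without overlap with any other day, and it then rose. The log2 fold changes were -1.10 ± 0.17 to day 3 (adjusted p = 0.000552), -2.80 ± 0.19 to day 6 (adjusted p = 3.14e-07) and 1.56 ± 0.18 from day 6 to day 9 (adjusted p = 0.000189). Ccnd2 stepped down once, from 863, 1032 and 899.7 CPM at day 0 to 544, 467 and 442 at day 3, and then stood at 441, 402 and 434 at day 6 and 396, 383 and 404 at day 9. The step at day 3 was -0.94 ± 0.10 (adjusted p = 2.89e-05). Cdk6, a partner of the D cyclins, had 39.8, 46.2 and 44.7 CPM at day 0, 17.8, 17.4 and 23.1 at day 3, 22.4, 21.4 and 23.8 at day 6 and 43.3, 60.5 and 50.1 at day 9. It fell by 1.16 on the log2 scale to day 3 (adjusted p = 5.71e-05) and rose by 1.16 from day 6 to day 9 (adjusted p = 0.000152), and at day 9 it overlapped with day 0. Cyclin D3 (Ccnd3, -0.77) and Cdk4 (-0.96) fell from day 3 to day 6.

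The CDK inhibitors did not move together. Cdkn1a had 389.9, 463 and 339 CPM in WT PRE at day 0, 231, 223 and 169 at day 3, 150.2, 206 and 175 at day 6 and 319.9, 325 and 345 at day 9. It was thus low at the 2 middle days, with a fall of 0.93 ± 0.15 on the log2 scale to day 3 (adjusted p = 0.000416) and a rise of 0.87 ± 0.15 from day 6 to day 9 (adjusted p = 0.00127). Cdkn2a stood at 74, 77.9 and 37.5 CPM at day 0, 72.6, 45.3 and 31.4 at day 3, 17.9, 21.1 and 20.4 at day 6 and 24.5, 26.8 and 28.5 at day 9. Its libraries of days 0 and 3 were spread widely and all lay above those of days 6 and 9, and the log2 fold change from day 3 to day 6 was -1.31 ± 0.32 (adjusted p = 0.00476). Cdkn2c ran the other way, with 12.2, 8.1 and 15.3 CPM at day 0, 17.4, 19.4 and 27.4 at day 3, 75.2, 82.9 and 75.5 at day 6 and 63.5, 65.7 and 68.1 at day 9. It rose by 0.86 ± 0.21 to day 3 (adjusted p = 0.00668) and by 1.88 ± 0.20 to day 6 (adjusted p = 1.16e-05), the one member that rose while 46 fell. Cdkn1b (p27) rose by 0.74 between days 0 and 9 (adjusted p = 0.00471).

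**Figure D3:**
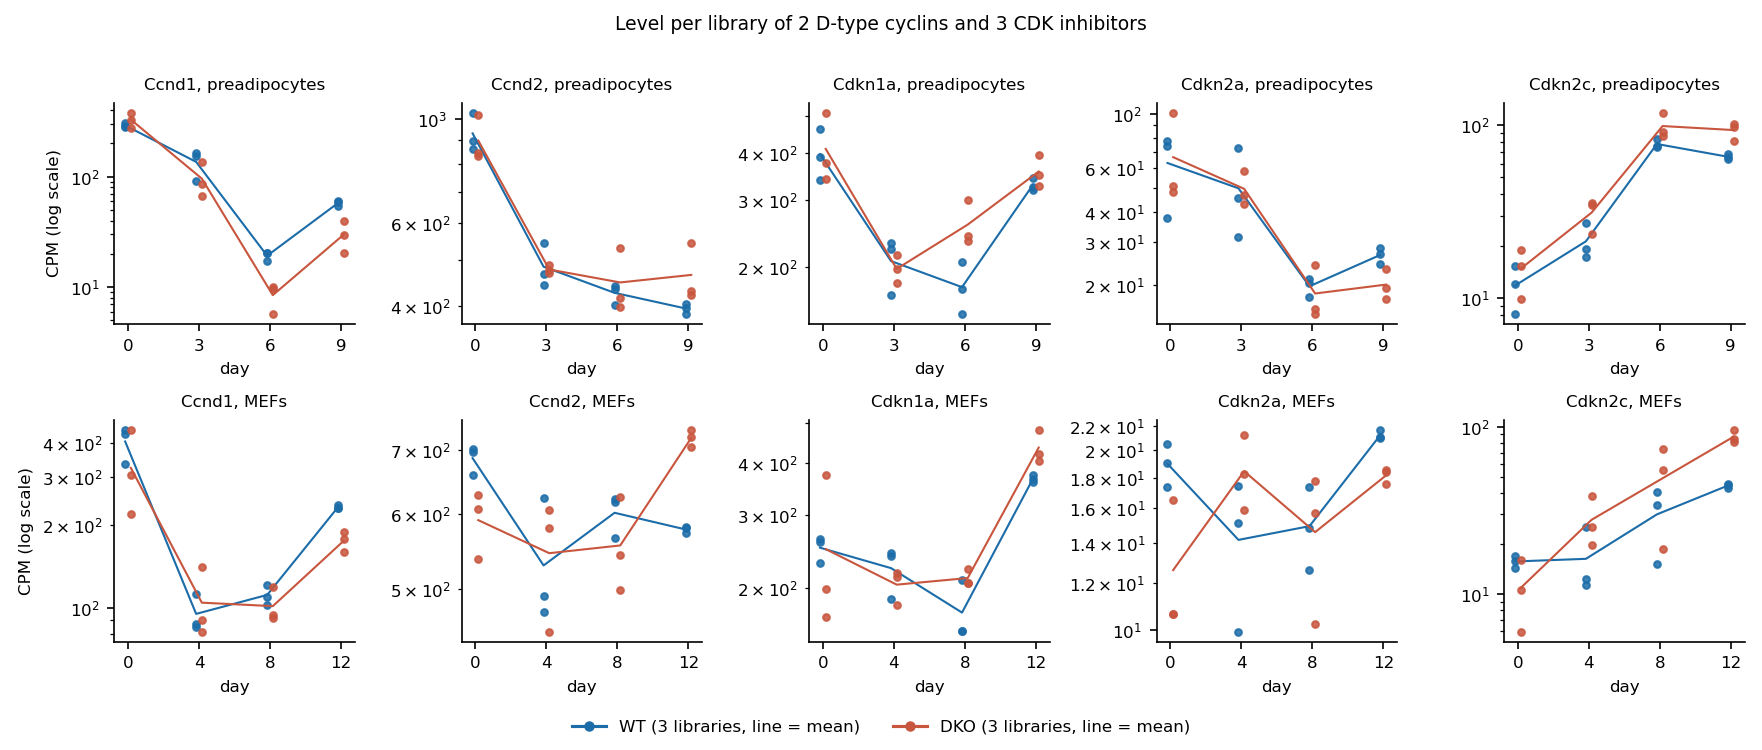
CPM (log axis) of the D cyclins Ccnd1 and Ccnd2 and of the CDK inhibitors Cdkn1a, Cdkn2a and Cdkn2c by day, drawn as for the cycle genes (points are libraries, lines are means, WT blue, DKO red). Ccnd1 dips at day 6 in PRE and Cdkn2c climbs from 8.10 to 15.3 CPM at day 0 to 75.2 to 82.9 CPM at day 6 in WT.

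Marker genes of other cells moved along the same days. The summed level of the 7 macrophage and leukocyte markers was 30.9 to 452 CPM over the PRE libraries of days 0 and 3, and 5351, 8979 and 9031 CPM in the WT libraries of day 6. Within WT at day 6, replicates 1 and 3 had the lowest and the highest of these sums and about the same Mki67 level (43.0 CPM in replicate 1). Replicate 2 had a sum close to that of replicate 3 and the lowest Mki67 level. The 6 adipocyte markers summed to 19370.3 to 23400 CPM in WT at day 6. The part of these cells in the time course was not tested, and in bulk RNA fewer cells of a type and less RNA per cell cannot be told apart.

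In DKO PRE the cycle genes also rose to day 3 and then fell. From day 0 to day 3, 28 genes rose and 4 fell (13% and 14% of all genes), with a median of 0.71 and with all 9 licensing and fork genes rising. From day 3 to day 6, 46 fell and 1 rose (25.8% and 23.7% of all genes) with a median of -2.67, and the role medians were -1.90 for licensing and fork, -2.89 for G2/M, -3.28 for the spindle and -3.50 for mitotic exit. From day 6 to day 9, 28 fell and 2 rose (2.99% and 6.05% of all genes). At day 9, 42 genes were below day 0 and 1 above it (29% and 26.6% of all genes). The fall of Mki67 from day 3 to day 6 had a log2 fold change of -3.49 ± 0.33 (adjusted p = 7.06e-06), that of Ccnd1 was -3.55 and that of Rrm2 -3.24. Cdkn2c rose by 1.12 to day 3 and by 1.62 ± 0.23 to day 6 (adjusted p = 0.000121).

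The next question was where the genotypes differ. At days 0 and 3 no cycle gene was called between DKO and WT PRE. At day 0 edgeR called 0 of 52 genes (0.218% of all genes), with 0 at an unadjusted p under 0.05, 0 called by DESeq2 and a smallest adjusted p of 0.688. At day 3 edgeR again called 0 of 52 (0.337% of all genes) and DESeq2 0, and 2 had an unadjusted p under 0.05. These were Foxm1, a mitotic transcription factor, and Cdkn2c. Mki67 in DKO PRE was 78.6, 121 and 138 CPM at day 0 and 149.8, 187 and 193 at day 3, inside or overlapping the WT range given above. DKO and WT libraries overlapped in all 52 genes at day 0 and in 51 at day 3, where 7.53% and 7.92% of all genes had every DKO library below WT.

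The other genes shown in every library overlapped between genotypes at these days. In DKO PRE at day 0, Top2a had 70.5, 105 and 114 CPM, Ccnb1 20.2, 31.2 and 30.5, Mcm5 19.7, 25.97 and 26.4 and Rrm2 67.9, 65.4 and 53.6. At day 3, Top2a had 172, 206 and 193 CPM, Ccnb1 45.1, 54.5 and 51.8, Mcm5 42.7, 45.4 and 45.3 and Rrm2 178, 139.7 and 134. All stood inside or across the WT range. Among G1 genes, Ccnd1 had 379.7, 328 and 276 CPM at day 0 and 135, 66.8 and 85.8 at day 3, and Ccnd2 had 1021, 845 and 833 and 488, 469 and 475. Of the inhibitors, Cdkn1a had 512, 377 and 343 CPM at day 0 and 215, 198 and 181 at day 3, Cdkn2a had 102, 47.9 and 50.8 and 58.8, 43.1 and 46.6, and Cdkn2c had 9.92, 15.5 and 19.1 and 23.5, 35.8 and 34.6. Cdkn2c stood higher on average in DKO at day 3, with 1 DKO library inside the WT range.

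At day 6, 26 of the 52 genes were lower in DKO than in WT PRE and none was higher, where 6.53% and 5.03% of all 14694 tested genes were called lower and higher. The median log2 fold change was -0.65 over the 52 genes and -0.01 over all tested genes, and 38 of the 52 had every DKO library below every WT library (18.3% of all genes). Most of the called genes belong to the late wave. They took in 3 of 3 genes of mitotic exit (median -1.27), 10 of 11 spindle genes (-1.15) and 8 of 10 G2/M regulators (-0.95), but 2 of 4 of nucleotide supply (-0.47), 1 of 9 licensing and fork genes (-0.34), 1 of 5 G1/S regulators (-0.23), 1 of 5 G1 cyclins and kinases (-0.21) and no CDK inhibitor. Among members with a promoter, CHR letters were present in 13 of the 20 called lower (65.0%) and in 4 of the 23 not called (17.4%), and E2F letters in 5 of the 20 (25%) and 10 of the 23 (43.5%). The count of 26 dropped to 13 when WT replicate 3 was left out, to 15 when WT replicate 1 was, and to 17 when DKO replicate 3 was, and it was 29 without WT replicate 2.

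Mki67 at day 6 had 18.2, 16 and 14.4 CPM in DKO against 42.99, 28.8 and 42.4 in WT, or 16.2 ± 1.94 against 38.1 ± 8.05 (mean ± SD, n = 3). All DKO libraries were below all WT libraries, and the log2 fold change was -1.27 ± 0.18 (adjusted p = 0.00513, edgeR). Top2a had 24.2, 22.3 and 19.6 CPM in DKO, less than any WT library, with a log2 fold change of -1.15 ± 0.14 (adjusted p = 0.00344). Cdc20 was at 2.83, 3.35 and 2.25 CPM in DKO and 6.69, 5.62 and 7.43 in WT (-1.27 ± 0.19, adjusted p = 0.00574). Kif11 was at 4.11, 3.57 and 2.69 CPM in DKO and 9.996, 6.82 and 9.04 in WT (-1.36 ± 0.21, adjusted p = 0.00626). In both the DKO libraries lay below the WT libraries. Both promoters carry CHR letters next to the start in the sequences above, as does that of Cdk1, which was not called. Ccnb1, Mcm5, Rrm2, Tk1 and the spindle genes Cenpe, Bub1 and Birc5 were called lower and carry no CHR letters.

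Other genes of the late wave called lower in DKO at day 6 were Kif23 (a kinesin of the midzone, -1.39 ± 0.29), Cenpf (a kinetochore protein, -1.34 ± 0.18), Cenpe (a kinetochore motor, -1.23), Ube2c (the ubiquitin-conjugating enzyme of the anaphase-promoting complex, -1.27) and Espl1 (separase, which cuts cohesin, -0.82). The cyclins were lower too. Ccnb1 had 6.805, 8.46 and 6.83 CPM in DKO against 13.4, 11.9 and 15.1 in WT, with no overlap (-0.91 ± 0.14, adjusted p = 0.00546), Ccnb2 differed by -1.22 ± 0.18 on the log2 scale (adjusted p = 0.00521) and Ccna2 by -1.09 ± 0.16 (adjusted p = 0.0047). Of the mitotic kinases, Plk1 (-1.15 ± 0.27), Aurkb (-1.14) and Aurka (-0.74) were lower, whereas Cdk1 was not called (adjusted p = 0.0601). Aurka, Birc5 (survivin, a partner of Aurora B) and Bub1b (a spindle checkpoint kinase) lost their calls under 7, 7 and 6 alternative settings and Cdc25c under 9.

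In the earlier phases single genes were called. Mcm5 had 5.62, 6.82 and 5.11 CPM in DKO against 9.39, 9.94 and 11.4 in WT (-0.85 ± 0.15, adjusted p = 0.00836), without overlap. Its partners Mcm2 (-0.47, adjusted p = 0.0191) and Mcm6 (-0.54, adjusted p = 0.0121) and the sliding clamp Pcna (-0.25, adjusted p = 0.0373) passed the adjusted p and not the fold. Rrm2 had 14.7, 22.2 and 12.8 CPM in DKO, below the WT libraries (-0.89 ± 0.18, adjusted p = 0.0158), and lost the call without WT replicate 1 or 3 (adjusted p up to 0.0689). Tk1, the thymidine kinase of the salvage pathway, was at 3.01, 3.57 and 2.47 CPM in DKO and 7.29, 6.05 and 7.22 in WT (-1.23 ± 0.18, adjusted p = 0.00506). E2f8 was at 1.005, 0.9895 and 0.6605 CPM in DKO and 2.07, 1.54 and 2.06 in WT (-1.13 ± 0.26, adjusted p = 0.0201). Neither Tk1 nor E2f8 had libraries that overlapped between genotypes.

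Of the G1 genes, Ccnd1 was the one called at day 6. It had 9.68, 10 and 5.68 CPM in DKO against 20.4, 17.1 and 20.2 in WT, with all DKO libraries lower (-1.23 ± 0.20, adjusted p = 0.00806). Ccnd2 had 416, 531 and 397 CPM in DKO, overlapping with WT. Cdkn1a had 235, 301 and 242 CPM in DKO against 150.2, 206 and 175 in WT, with all DKO libraries higher and a log2 fold change of 0.51 ± 0.13 (adjusted p = 0.0293) that is under the fold threshold. Cdkn2c had 91.3, 118 and 87.1 CPM in DKO, above the WT libraries, with an adjusted p of 0.0825. Cdkn2a had 15.2, 24.2 and 16.03 CPM in DKO and overlapped with WT.

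Securin (Pttg1), the inhibitor of the separase Espl1, is not among the 52 genes and was higher in DKO at day 6. It had 33.9, 32.6 and 38.4 CPM in DKO PRE at day 6 against 4.40, 4.35 and 4.52 in WT, a log2 fold change of 2.95 (adjusted p = 5.97e-06), while Espl1 had 2.01, 2.14 and 1.67 CPM in DKO against 3.796, 3.197 and 2.99 in WT. From day 3 to day 6 in DKO PRE, Pttg1 rose by 1.80 on the log2 scale while all 3 genes of mitotic exit fell. Every DKO library of Pttg1 already lay above WT in PRE at day 0 (9.46 to 12.9 against 4.40 to 8.24 CPM), and the genotypes overlapped at day 3. In MEF its DKO libraries lay above WT at days 0, 4 and 8 too (log2 fold changes of 1.21, 0.71 and 0.83). It was not called at any of these earlier days.

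Genes outside the 52 were counted as lists. At day 6, 28 of 37 further mitosis genes were lower in DKO PRE (median -0.87), against 3 of 30 further replication genes (-0.37), 2 of 16 of G1 control (-0.15) and 1 of 14 p53 targets, where 6.53% of all genes were lower. The cell markers differed at this day as well. The macrophage and leukocyte sum was 4249, 1995 and 2921 CPM in DKO against 5351, 8979 and 9031 in WT, the preadipocyte and fibroblast sum was 3168 to 4781 CPM in DKO against 9803 to 11638 in WT, and the adipocyte sum was 25739.6 to 31689.4 CPM in DKO against 19370.3 to 23400 in WT. None of these sums overlapped between genotypes, and their part in the lower cycle genes was not tested.

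At day 9 edgeR called 0 of the 50 tested cycle genes (1.24% of all genes), with 20 at an unadjusted p under 0.05 and 5 called lower by DESeq2. Cdc25c and E2f8 were too low to be tested. The median was -0.46 over the 50 genes, and 16 had all DKO libraries below WT (12.4% of all genes). Without DKO replicate 2, 18 genes were called lower, and the share of all genes called in that fit is not given here. Mki67 had 3.75, 5.95 and 1.82 CPM in DKO against 11.2, 10.8 and 10.4 in WT, without overlap and with replicate 2 the highest of the DKO libraries (-1.53 ± 0.38, adjusted p = 0.0713). Top2a had 5.29, 9.28 and 4.28 CPM in DKO, where replicate 2 lay inside the WT range. Ccnb1 at 1.83, 4.26 and 2.21 CPM, Mcm5 at 2.02, 3.06 and 1.95 CPM and Rrm2 at 20.1, 30.6 and 18.9 CPM overlapped with WT through replicate 2 alone.

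Ccnd1 at day 9 had 29.7, 39.5 and 20.5 CPM in DKO, below the WT libraries at 54.3, 60.2 and 58.8 (-0.98 ± 0.22, adjusted p = 0.0605). Cdk6 had 35.5, 27.8 and 26.2 CPM in DKO, also below WT (adjusted p = 0.0519), and its rise from day 6 to day 9, called in WT, was not called in DKO (adjusted p = 0.175). That difference between genotypes was not called, as given below for all 52 genes. Cdkn2c had 98.01, 81.6 and 102 CPM in DKO, above the WT libraries (0.48 ± 0.09, adjusted p = 0.0506), and Cdkn2a had 19.5, 23.2 and 17.6, below them (adjusted p = 0.0775). Cdkn1a at 327, 396 and 350.3 CPM overlapped with WT. Pttg1 was again higher in DKO (3.4, adjusted p = 0.0012). At this day the macrophage and leukocyte sum was 2723, 1302 and 1667 CPM in DKO against 2822, 5852 and 4827 in WT, and the fibroblast sum in DKO was 4854, 11062 and 3499 CPM, so DKO replicate 2, the highest of its group in Mki67, was also the highest in fibroblast markers. Their part in the result was not tested.

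**Figure D4:**
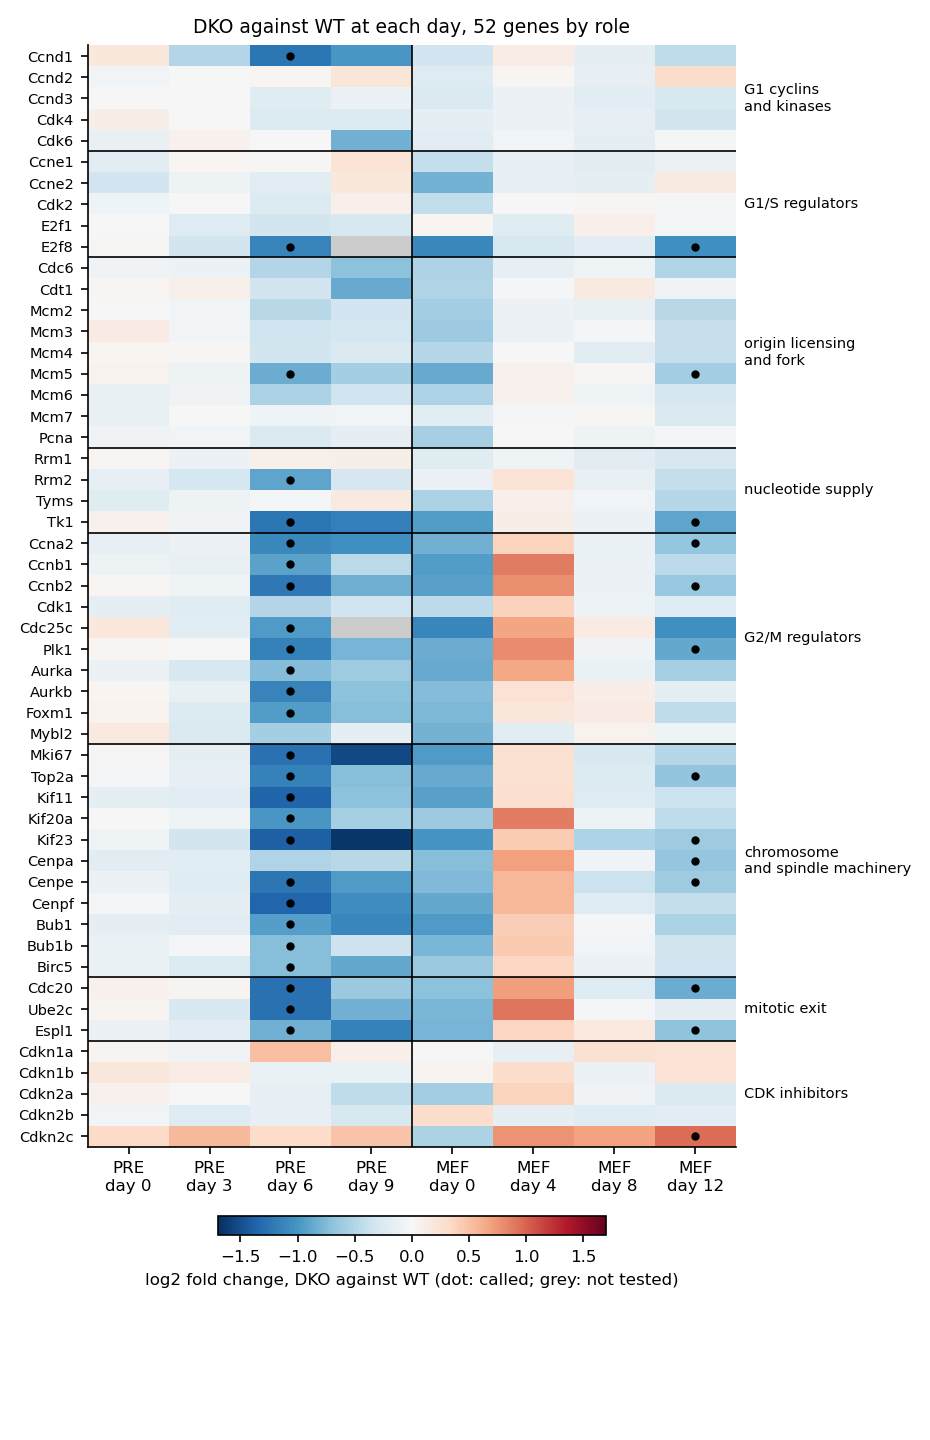
Log2 fold change of DKO against WT for the 52 genes (rows, by role) in the 8 comparisons of cell type and day (columns). Blue is lower and red higher in DKO, a dot marks a called gene and grey a gene that was not tested. The dots lie in PRE day 6 (26 lower) and MEF day 12 (12 lower, 1 higher, Cdkn2c).

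In MEF the time course had another shape. In WT MEF 13 of 52 genes rose and 4 fell from day 0 to day 4 (14.8% and 18.4% of all genes), with a median of 0.28. No cycle gene was called between days 4 and 8 by edgeR or by DESeq2 (1.03% and 0.697% of all genes higher and lower by edgeR), with 13 at an unadjusted p under 0.05, but 4 were called without replicate 1 of day 4 and 5 without replicate 2 of day 8. From day 8 to day 12, 41 fell and 2 rose (8.73% and 12.5% of all genes), with medians of -1.45 for licensing and fork, -2.03 for G2/M, -2.16 for the spindle and -2.09 for mitotic exit. At day 12, 42 were below day 0 and 1 above it (13.8% and 12.5% of all genes). Mki67 was at 152, 175 and 146 CPM in WT MEF at day 0, 131, 117 and 107 at day 4, 114, 116 and 113 at day 8 and 34.1, 33.6 and 35.6 at day 12. It was highest at day 0 and lowest at day 12, where it had a log2 fold change of -1.80 ± 0.08 from day 8 (adjusted p = 1.9e-07).

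In contrast to Mki67, the S-phase gene Rrm2 rose in WT MEF from 34.9, 32.6 and 34.6 CPM at day 0 to 118, 148 and 145 at day 4 (2.01 ± 0.10, adjusted p = 1.06e-07), stood at 94.8, 114 and 94.2 at day 8 and fell to 23.1, 22.8 and 21.4 at day 12. Days 4 and 8 lay above days 0 and 12 without overlap. Ccne1 (0.78) and Ccne2 (1.25), the E-type cyclins, also rose to day 4. Top2a had 98.4, 110.2 and 92.96 CPM at day 0, 159.7, 138 and 129 at day 4, 145, 139.9 and 143 at day 8 and 29.02, 25.2 and 25.96 at day 12, lowest at the last day. Ccnb1 had 20.8, 27.3 and 22.4 CPM at day 0, 45.8, 24.4 and 23.8 at day 4, 32.1, 30.3 and 35.2 at day 8 and 6.06, 6.101 and 7.17 at day 12, and at day 4 replicate 1 stood well above the other two. Mcm5 had 33.01, 35.3 and 36.1 CPM at day 0, 45.1, 50.2 and 51.8 at day 4, 43.7, 41.4 and 39.98 at day 8 and 10.3, 10.3 and 11.2 at day 12, highest at day 4 and lowest at day 12 (-2.04 from day 8).

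Ccnd1 fell early and came back in MEF too. It had 432, 335 and 446 CPM in WT at day 0, 113, 85.1 and 87.3 at day 4, 109.9, 103 and 122 at day 8 and 237, 231 and 231 at day 12. The fall to day 4 was -2.09 ± 0.13 (adjusted p = 3.08e-07) and the rise from day 8 to day 12 was 1.00 ± 0.12 (adjusted p = 9.99e-05), and day 12 stayed below day 0 in all libraries. Ccnd2 had 702, 659 and 697 CPM at day 0, 623, 492 and 474 at day 4, 617, 566 and 621 at day 8 and 579, 572 and 581 at day 12, with no call between neighbouring days. Cdkn1a had 258, 231 and 263 CPM at day 0, 188, 240.0 and 243 at day 4, 158, 209.7 and 158 at day 8 and 376, 366 and 361 at day 12, and the last day lay above all others (1.00 ± 0.13 from day 8, adjusted p = 0.000116). Cdkn2a had 19.1, 17.4 and 20.5 CPM at day 0, 17.4, 9.93 and 15.1 at day 4, 17.3, 12.6 and 14.8 at day 8 and 21.1, 20.96 and 21.6 at day 12, with no call between neighbouring days. Cdkn2c had 14.2, 16.9 and 15.7 CPM at day 0, 25.1, 12.3 and 11.3 at day 4, 33.9, 15.2 and 40.6 at day 8 and 43.01, 45.5 and 44.8 at day 12, spread widely at days 4 and 8 and above day 0 in every library at day 12 (1.43 ± 0.36, adjusted p = 0.00872).

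In DKO MEF 35 genes rose and 2 fell from day 0 to day 4 (11.4% and 14.7% of all genes), with a median of 1.25. The difference from WT was tested as an interaction, given last. All 10 G2/M regulators rose (median 1.60), as did 8 of 11 spindle genes (1.61), 3 of 3 of mitotic exit (1.91) and 8 of 9 licensing and fork genes (0.82). Ccnb1 rose by 2.25 ± 0.31 (adjusted p = 0.000483), Top2a by 1.61 ± 0.34 (adjusted p = 0.00464), Mcm5 by 1.43 ± 0.28 (adjusted p = 0.00301) and Rrm2 by 2.34 ± 0.22. From day 4 to day 8 edgeR and DESeq2 called none of the 52 genes (0% of all genes by edgeR), with 12 at an unadjusted p under 0.05, and 1 was called without replicate 3 of day 8. From day 8 to day 12, 41 fell and 2 rose (7.13% and 14.5% of all genes), and at day 12, 35 were below day 0 and 2 above it (9.97% and 15.6% of all genes). Without replicate 1 of day 0, 41 rose and 2 fell to day 4, and at day 12, 29 were below day 0 and 2 above it. Top2a then rose by 2.20 and Rrm2 by 2.28 to day 4, against 1.61 and 2.34 with that library. Cdkn2c rose by 3.04 ± 0.50 from day 0 to day 12 (adjusted p = 0.000924), and by 3.41 without it.

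**Figure D5:**
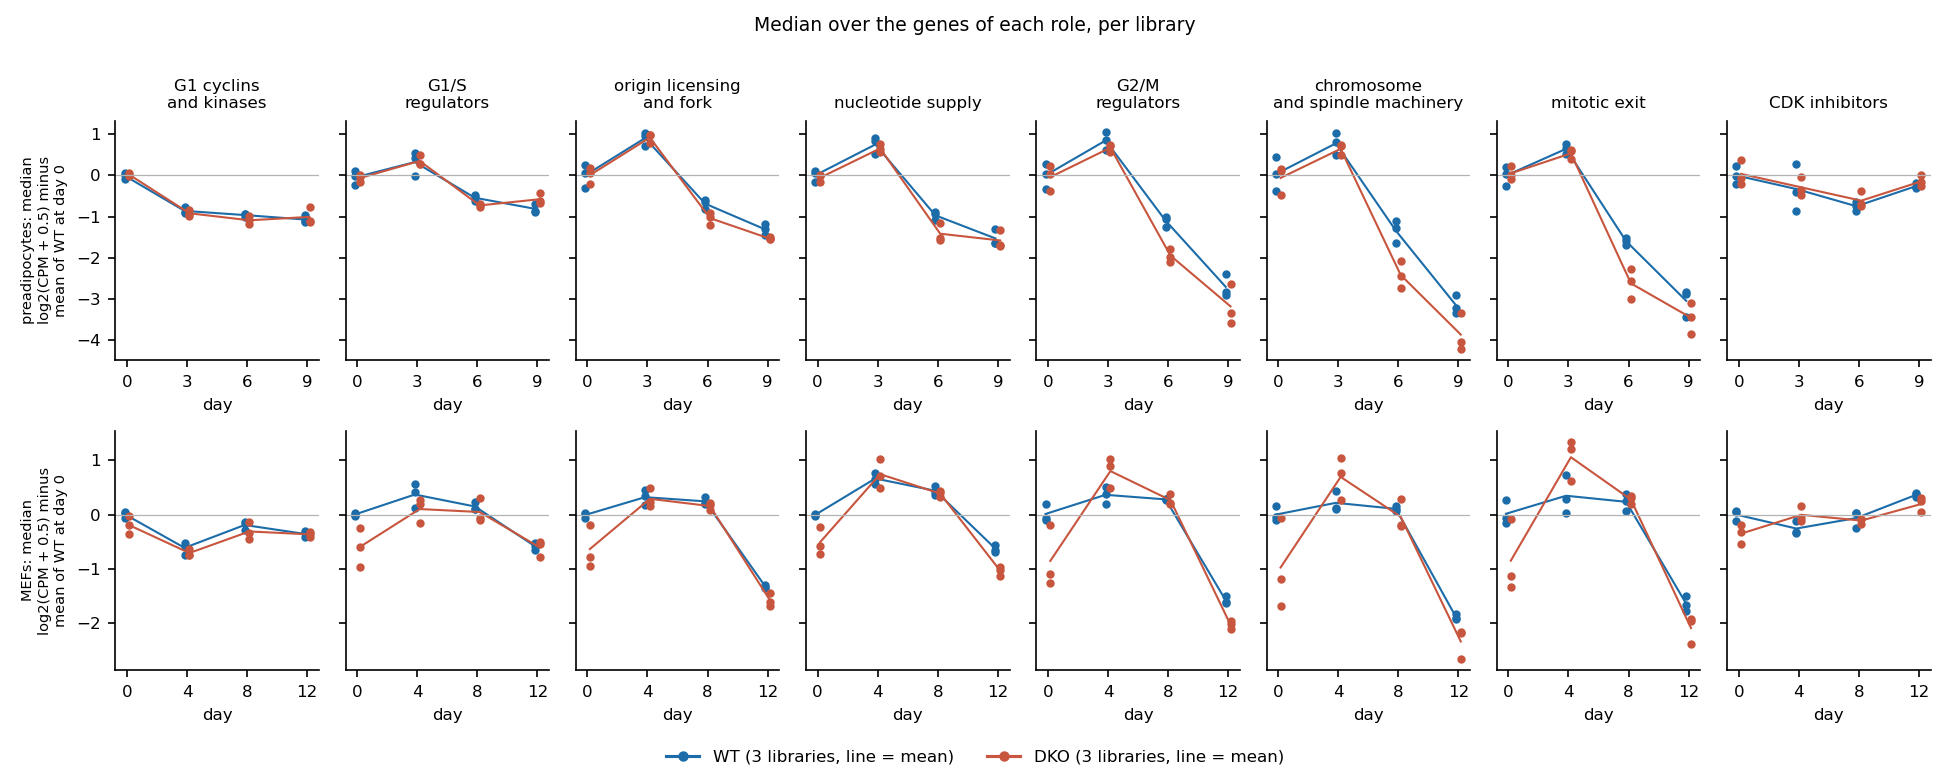
Median of log2(CPM + 0.5) over the genes of each role in every library, relative to the mean of the WT libraries of day 0 of that cell type, by day in PRE and MEF (WT blue, DKO red). In PRE the roles of DNA synthesis and mitosis rise to day 3 and drop below 0 at days 6 and 9. In MEF at day 0, the spindle median is -0.06 in DKO replicate 1 and -1.67 and -1.19 in replicates 2 and 3.

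At day 0, DKO MEF had lower mean levels of most cycle genes, which rested on 2 of the 3 libraries. Mki67 had 135, 34 and 73.1 CPM in DKO against 152, 175 and 146 in WT. Top2a had 93.4, 31.1 and 43.1 CPM in DKO against 98.4, 110.2 and 92.96, Mcm5 29.8, 12.4 and 15.8 against 33.01, 35.3 and 36.1, and Ccnb1 19.4, 6.94 and 10.3 against 20.8, 27.3 and 22.4. In each of these, replicate 1 was close to WT and replicates 2 and 3 were low. Rrm2 did not show this, at 29.2, 39.5 and 26.97 CPM in DKO and 34.9, 32.6 and 34.6 in WT. EdgeR called 0 of 52 (0.102% of all genes) and DESeq2 0, with 18 at an unadjusted p under 0.05, a smallest adjusted p of 0.524 and a median of -0.63 (0.01 over all genes). DKO lay below WT without overlap in 24 of 52 genes (9.74% of all genes). Without DKO replicate 1, 29 genes were called lower, and the share of all genes called in that fit is not given here. The medians were -0.83 for G2/M, -0.85 for the spindle and -0.78 for mitotic exit against -0.52 for licensing and fork and -0.01 for CDK inhibitors.

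The inhibitors and D cyclins of DKO MEF at day 0 were uneven. Cdkn1a had 199.5, 376 and 171 CPM, above WT (258, 231 and 263) in replicate 2 and below it in replicates 1 and 3. Cdkn2a had 16.5, 10.6 and 10.6 CPM, all below WT (19.1, 17.4 and 20.5), Ccnd2 had 628, 607 and 537, also all below WT, and Ccnd1 had 306, 219.9 and 445, overlapping with it. Cdkn2c had 15.96, 5.96 and 10.6 CPM and overlapped. The fibroblast marker sum of this group split in the same way as Mki67, at 24184.7, 8995 and 12450 CPM in DKO replicates 1, 2 and 3 against 19142.1 to 22484.4 in WT, and the adipocyte sum was 1497 to 2126 CPM in DKO against 909 to 1093 in WT. The sum of 3 mesothelial markers ran the other way, at 93.8, 224 and 436 CPM in DKO against 109 to 204 in WT. Their part in the result was not tested.

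At day 4 the mean difference was positive. EdgeR and DESeq2 called 0 of 52 (0.0905% of all genes by edgeR), with 14 at an unadjusted p under 0.05 and a median of 0.21, and the medians were 0.52 for G2/M, 0.43 for the spindle and 0.71 for mitotic exit. DKO libraries were above WT without overlap in 6 genes, Ccnb1, Cdk1, Plk1, Kif20a, Espl1 and Cdkn1b (5.58% of all genes). They were below WT without overlap in 2 of the 52, and the share of all genes in this direction is not given here. Ccnb1 had 58.9, 67.4 and 46.97 CPM in DKO (0.88 ± 0.28, adjusted p = 0.75) and Cdk1 had 70.6, 73.2 and 56.8 against 53.8, 51.2 and 47.6 in WT. Mki67 at 138, 175 and 113 CPM, Top2a at 167, 208 and 135, Mcm5 at 48.4, 63.1 and 44.4 and Rrm2 at 155, 213 and 117 overlapped with WT. Ccnd1 (81.95, 141 and 90.3 CPM), Ccnd2 (451, 579.5 and 605), Cdkn1a (217, 213 and 182), Cdkn2a (18.2, 15.9 and 21.2) and Cdkn2c (25.03, 19.7 and 38.5) overlapped too.

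At day 8 edgeR and DESeq2 called 0 of 52 (0.0595% of all genes by edgeR), with 2 at an unadjusted p under 0.05, the helicase subunit Mcm4 (-0.20) and Kif23 (-0.52), and a median of -0.10. Mki67 was at 86.4, 86.7 and 117 CPM in DKO, Top2a at 122, 108 and 140.4, Ccnb1 at 31.6, 29.1 and 31.8, Mcm5 at 41.3, 39.9 and 47.6 and Rrm2 at 85.2, 85.3 and 112. Each overlapped with WT. Over all 52 genes, DKO lay below WT without overlap in 5 and above it in 0. The shares of all genes that did so are not given here, so these counts do not set the cycle genes apart. Cdkn2c had 73.5, 55.3 and 18.7 CPM, and its spread was the widest of any group of this gene. Ccnd1 (94.2, 91.5 and 119 CPM), Ccnd2 (624, 543 and 499.5), Cdkn1a (207, 206 and 223) and Cdkn2a (15.7, 17.8 and 10.2) overlapped with WT.

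At day 12, 12 of the 52 genes were lower and 1 was higher in DKO MEF (4.05% and 3.92% of all genes), with a median of -0.39 (0.00 over all genes) and 29 genes with DKO below WT without overlap (20.5% of all genes). The 12 were E2f8, Mcm5, Tk1, Ccna2, Ccnb2, Plk1, Top2a, Kif23, Cenpa, Cenpe, Cdc20 and Espl1. Of these 12, 11 were among the 26 called lower in PRE at day 6, the exception being Cenpa, the centromeric histone. The matching overlap over all genes was not counted, so whether it is particular to cycle genes was not tested. CHR letters were present in 8 of the 11 called genes with a promoter (72.7%) and in 9 of 31 not called (29.0%). Without WT replicate 1 or WT replicate 3 the counts were 7 lower and 1 higher, and with 1 fit over all days of MEF none was called. Top2a had 19.7, 14.01 and 16.9 CPM in DKO against 29.02, 25.2 and 25.96 in WT, all lower (-0.67 ± 0.11, adjusted p = 0.00026). Mcm5 had 7.69, 5.72 and 7.93 against 10.3, 10.3 and 11.2 (-0.60 ± 0.13, adjusted p = 0.00186), E2f8 1.35, 1.184 and 0.815 against 2.27, 2.14 and 2.46 (-1.04 ± 0.27, adjusted p = 0.00675) and Cdc20 3.46, 2.21 and 3.37 against 4.29, 5.78 and 5.85 (-0.84, adjusted p = 0.00369). None of these 4 overlapped with WT.

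Several genes passed the adjusted p and not the fold at day 12. Mki67 had 27.4, 20.2 and 27.01 CPM in DKO against 34.1, 33.6 and 35.6 (-0.49 ± 0.10, adjusted p = 0.00144), Rrm2 16.8, 16.8 and 17.9 against 23.1, 22.8 and 21.4 (-0.41, adjusted p = 0.000575) and Ccnb1 4.901, 3.91 and 5.597 against 6.06, 6.101 and 7.17 (-0.45, adjusted p = 0.0375). All 3 were lower in every DKO library. The D cyclins differed in direction. Ccnd1 had 178, 160.4 and 189 CPM in DKO, all below WT (-0.43 ± 0.05, adjusted p = 8.11e-06), and Ccnd2 had 722, 735 and 704, all above WT (0.30 ± 0.04, adjusted p = 3.12e-05).

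The gene that was higher in DKO MEF at day 12 was the inhibitor Cdkn2c, with 80.7, 95.7 and 84.7 CPM in DKO against 43.01, 45.5 and 44.8 in WT, or 87.0 ± 7.80 against 44.4 ± 1.28 (mean ± SD, n = 3). The groups were far apart, with a fold of 1.92 and a log2 fold change of 0.94 ± 0.06 (adjusted p = 1.98e-08). Its call was lost in 1 setting, a single fit over all days of MEF (adjusted p = 0.249). Over all genes, squared differences between 2 libraries relative to counting noise were 2.18 to 3.58 in WT and 3.01 to 12.6 in DKO at this day. In DKO MEF at day 0 they were 107 to 168. The small p-values of day 12 rest on this narrow spread, which may be technical. Cdkn1a was above WT in every DKO library at 422, 482 and 406 CPM (0.23, adjusted p = 0.00668), as was Cdkn1b (0.25, adjusted p = 0.00137), and Cdkn2a was below at 17.6, 18.5 and 18.4 CPM (-0.25, adjusted p = 0.0165), all under the fold threshold. Pttg1 was higher in DKO here as well (2.97, adjusted p = 4.89e-11). Of the lists outside the 52, 6 of 37 mitosis genes and 1 of 30 replication genes were lower, where 4.05% of all genes were. Of 16 genes of G1 control and 14 p53 targets edgeR called 0, with 7 and 8 at an unadjusted p under 0.05. The macrophage and leukocyte sum was 2800 to 3222 CPM in DKO against 4384 to 4436 in WT, the fibroblast sum 8439 to 9202 against 14217.7 to 14715.4, and the adipocyte sum 24667.3 to 25890.8 against 16231.3 to 16602.6. The part of these cells in the result was not tested.

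Whether the genotype difference itself changed between days was tested as an interaction, and edgeR called 0 of the 52 genes in each of the 7 tests. For PRE day 6 against day 3, 18 genes had an unadjusted p under 0.05, the median was -0.43, the smallest adjusted p was 0.061 (Cdc20, -1.27 ± 0.31) and DESeq2 called 3 lower (0.51% of all genes were called by edgeR). When WT replicate 3, DKO replicate 2 or DKO replicate 3 of day 9 was left out, which share the fit, edgeR called 1. The 7 spindle, 5 G2/M and 2 mitotic exit genes made up most of the 18. For MEF day 4 against day 0, 32 genes had an unadjusted p under 0.05, the median was 0.89, the smallest adjusted p was 0.276 and DESeq2 called 5 higher (0.00588% of all genes by edgeR). This test gave 34 genes higher without DKO replicate 1 of day 0 and 1 without WT replicate 1 of day 4. The other 5 had 0 (PRE day 3 against day 0), 3 (PRE day 9 against day 6), 5 (MEF day 8 against day 4), 4 (MEF day 12 against day 8) and 7 (day 0, MEF against PRE) genes at an unadjusted p under 0.05, and DESeq2 called 0 in each. The last of these gave 5 without DKO replicate 1 of MEF. With every library, the shares over all genes in these 5 tests were 0.0948%, 0%, 0%, 0.00588% and 0.0844%. Shares for the interaction fits with a library left out are not given here. Pttg1, outside the 52, had a called interaction for PRE day 6 against day 3 (3.11, adjusted p = 3.16e-06, edgeR). It also had one for MEF day 12 against day 8 (2.14, adjusted p = 0.00666, edgeR).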

How the data were processed

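RNA of 24 PRE and 24 MEF libraries was sequenced. Per the submitters' notes and methods, reads were trimmed (cutadapt 1.18) and mapped to mm10 by STAR 2.7.0f. The authors deposited expected counts per gene from RSEM 1.3.0, not normalized, for each cell type. Reads shared by several genes are divided among them, and 5.49% to 7.9% of a library's values were not whole. These counts were rounded and tested with edgeR 4.0.16 (R 4.3.3; TMM, filterByExpr, robust quasi-likelihood, Benjamini-Hochberg over all tested genes), each genotype comparison on the 6 libraries of a day, each time comparison on the 12 of a genotype and each interaction between days on the 24 of a cell type. The edgeR test was first checked on counts simulated with 1 fixed spread, for DKO against WT in PRE at day 6, for WT PRE day 9 against day 6 and for the DKO effect between those days. The MEF tests, the other contrasts and the alternatives were not simulated. Alternatives were DESeq2 1.42.0, limma-voom (limma 3.58.1) with quantile scaling, library size only, other filters, no fold threshold, 1 fit over all days, a replicate block and leaving out each library. All 55450 gene IDs matched GENCODE M21. All 52 genes could be named, with every library shown for 10. Members and lists were chosen with earlier results of these data known. Same-numbered libraries deviated together (every correlation over 0.1) only in WT PRE of days 6 and 9 (0.191 to 0.539) and in DKO PRE of days 0 and 3 (0.468 to 0.615) and of days 6 and 9 (0.441 to 0.563), so replicate numbers do not pair the genotypes.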

Additional observations from a re-analysis of the deposited data

Results flagged for a closer look

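In MEF, 4 of the 52 genes had every DKO library on one side of the WT libraries at one day and on the other side later. The difference between those days was not tested. The share of all genes that switch sides in this way was not counted, so whether it is particular to cycle genes was not tested. The mitotic kinase gene Plk1 had log2 fold changes of 0.81 at day 4 and -0.87 at day 12, with 22.8, 27.1 and 18.97 CPM in DKO against 17.99, 9.52 and 11.7 in WT at day 4 and 2.49, 1.80 and 2.12 against 4.68, 4.39 and 2.55 at day 12. Ccnb1 had 0.88 at day 4 and -0.45 at day 12, and Espl1 had 0.35 and -0.69. Cyclin D2 (Ccnd2) had -0.22 at day 0 and 0.30 at day 12. Plk1 and Espl1 were called at day 12 (edgeR, adjusted p = 0.0115 for Plk1 and 0.0291 for Espl1), and none of the 4 was called at the earlier day.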

How the results depend on the processing

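Of the counts of called genes under the alternatives, 608 stayed within 1.5 times of the reported count and 29 did not, and of the log2 fold changes between genotypes (and between days for the 10 genes shown in every library) that were called or had an unadjusted p under 0.05, none reversed, 4017 kept their side of the threshold, 97 gained a call and 120 lost one. Differences over that p are not in these counts and could change sign, such as that of Cdkn1a in MEF at day 0 (-0.44 to 0.20). In PRE at day 9, where none was called, DESeq2 called 5 genes, library size only 2, no filter on low counts 3 and 1 fit over all days 8, all lower in DKO. In MEF at day 12 the count of 13 became 31 with no fold threshold and 0 with 1 fit over all days. In WT MEF, no fold threshold gave 30 genes for day 4 against day 0 and 3 for day 8 against day 4, and library size only gave 2 for the latter. The change of the DKO effect from day 3 to day 6 in PRE gave 3 genes with DESeq2 and 1 with library size only, and that from day 0 to day 4 in MEF gave 5 with DESeq2. The cause was not tested.

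Leaving out each library in turn gave 13 to 29 called genes in PRE at day 6, 0 to 18 at day 9, 0 to 29 in MEF at day 0 and 8 to 13 at day 12. The shares of all genes called with a library left out are not given here, so a rise in these counts may not be particular to cycle genes. Leaving out a library gave 25 to 42 for WT PRE day 3 against day 0 (25 without WT replicate 2 of day 0), 0 to 5 for WT MEF day 8 against day 4 (5 without replicate 2 of day 8, 4 without replicate 1 of day 4) and 0 to 1 for DKO MEF (1 without replicate 3 of day 8). For the DKO effect it gave 0 to 1 in PRE from day 3 to day 6 (1 without day 9 WT replicate 3, DKO replicate 2 or DKO replicate 3), 0 to 34 in MEF from day 0 to day 4 (1 without day 4 WT replicate 1) and 0 to 5 at day 0 between cell types (5 without MEF DKO replicate 1). With the replicate number as a block the counts were 22 in PRE at day 6 and 13 in MEF at day 12, and for the days that pair, 31 for DKO PRE day 9 against day 6; the block moved no count by more than 1.5 times. Depth limits Cdc25c and E2f8 most, whose counts in PRE at day 9 were too low to be tested.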
